A study of Mus musculus with 12 samples.

Results

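Perigonadal fat of mice that overexpress the glucose transporter Glut4 was compared with fat of their littermate controls, on 6 of the 12 arrays of the study. The titles of the arrays named 3 of them as overexpressors and 3 as their controls, and each array held RNA of 1 mouse. All 6 mice were labelled female, 6 months old, of strain FVB and fed ad libitum. In the overexpressors the aP2 promoter drives a Glut4 transgene, and the controls were FVB littermates. No other allele or agent was named for either group. The aP2 promoter belongs to Fabp4, and it is active in adipocytes and also in other cells such as macrophages. The genotype field held the same entry for both groups, so the titles alone set them. The other 6 arrays, of a Glut4 knockout line and its controls, entered only 1 alternative fit.

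Glut4, encoded by Slc2a4, is the transporter that insulin moves to the surface of fat and muscle cells to take up glucose. In an adipocyte glucose carbon supplies the glycerol of triglycerides and, through citrate, new fatty acids, with NADPH from the pentose phosphate pathway and malic enzyme. Fat cells also release stored fatty acids, break down branched-chain amino acids and secrete hormones, and a whole fat pad holds stromal, vascular and immune cells besides.

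The values are array intensities on a linear scale, given below in the order of array numbers 1, 2 and 3. A change is the difference of the group means of log2(intensity + 36.96), overexpressor minus control. The constant is the 10th percentile of the 6 arrays, and it makes the changes of dim probe sets smaller. The brighter 7454 of 12422 probe sets were tested with limma, and a result was called at a Benjamini-Hochberg adjusted p under 0.05. The brightest probe set stood for each of 5712 tested genes. The p-values set the group difference against the spread between arrays of 1 mouse each, which limma estimates with help from all probe sets tested. The number of mice sets the precision. Intensities of different genes are not compared, since probes differ in how brightly they bind.

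Overexpressor 1, control 1 and control 3 stood apart, in different ways, before any gene was considered. Across the tested probe sets, control 3 had a mean correlation of 0.951 with the other controls and of 0.969 with the overexpressors. Each of the remaining 5 arrays correlated better with its own group. For control 1 these means were 0.953 and 0.941, and for overexpressor 1 0.956 and 0.945. The main axis of variation (first principal component, 45.9% of the variance) ran from control 1 at -20.26 to overexpressor 1 at 19.31. Control 3 lay at 5.28 on it. The root mean square log2 difference of control 3 was 0.217 from overexpressor 2 and 0.226 from overexpressor 3, against 0.377 from control 1 and 0.285 from control 2. Overexpressor 1 differed by 0.332 from control 3 and by 0.343 and 0.351 from overexpressors 2 and 3. From controls 1 and 2 it differed more, by 0.467 and 0.37. Overexpressor 1 was the dimmest array, with a median intensity of 188.1 where the others had 204.8 to 219.4. It was the lowest of the 3 overexpressors in 3753 of 5712 genes (65.7%). More than 2-fold from the mean of the rest of their group lay 71 probe sets on control 3, 62 on control 1, 51 on overexpressor 1 and 11 to 24 on each of the other arrays. Of the 51 on overexpressor 1, 50 lay below.

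Slc2a4 itself did not separate the groups. Its probe set read 625, 1109.7 and 1042 on the overexpressor arrays and 639, 583 and 1212 on the control arrays. Overexpressor 1 lay with controls 1 and 2, and control 3 was the highest of all. The log2 change was 0.22 (95% interval -0.47 to 0.90, limma adjusted p = 0.916). A second Slc2a4 probe set lay between 21.9, the lowest value on every array, and 33.2, below the range tested. The species of the transgene is not given, so it is not known whether these probes read its RNA, and the values check neither group's label. The arrays are called by their labels throughout.

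The tissue carried the marks of fat on all 6 arrays. Adipoq, the adipocyte hormone adiponectin, read 5196, 6571 and 6986 in overexpressors and 5974, 6818 and 6438 in controls. Fabp4, the fatty acid binding protein whose promoter drives the transgene, read 4298, 4714 and 4766 and 4737, 5152 and 4532. Lep, which encodes leptin, read 1982, 2043 and 2609 and 1679, 2077 and 2823. The groups overlapped for each of these genes. Of 10 adipocyte markers 8 were named by a probe set, all 8 were tested, and their median log2 change was 0.004. Overexpressor 1 was the lowest of its group for all 8. The summed level of the 8 markers was 22410.0, 27954 and 29766 in overexpressors and 24483, 27051 and 27662 in controls.

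Here the question was what more Glut4 in fat changed in its RNA. Nnmt was the only call, 1 of 7454 probe sets (0.0134%), and it fell. Nnmt methylates nicotinamide with the methyl group of S-adenosylmethionine and so links the NAD and methyl donor pools. It read 291, 281 and 361 on the overexpressor arrays and 821, 899 and 849 on the control arrays. The highest overexpressor, array 3, stayed far below the lowest control, and neither overexpressor 1 nor control 3 stood apart from its group. The means were 311 ± 43.2 and 856 ± 39.7 (SD, n = 3), with a log2 change -1.37, SE 0.12, adjusted p = 0.0214 by limma. The fall kept its size when single arrays were left out (log2 change -1.47 to -1.31), but the adjusted p was then 0.0702 without overexpressor 1, 0.103 without control 1, 0.285 without control 2 and 0.0783 without control 3. It was also 0.103 when the dim probe sets were tested too. At an unadjusted p under 0.05 there were 321 probe sets, 78 higher (1.05%) and 243 lower (3.26%). The 2 groups did not overlap for 128 genes that read higher in overexpressors (2.24% of the genes tested) and 362 that read lower (6.34%). More generally, 4045 genes (70.8%) read lower in overexpressors and 1667 (29.2%) higher, with a median log2 change of -0.074. This lean depended on the scaling of the arrays, since 54.3% read lower with each array's median subtracted and 48.2% with the arrays quantile normalized. Each of these scalings gave 7 calls (0.0939% of probe sets), 2 higher and 5 lower. The same 7 genes were called by both, Nnmt, Tst, Oxct1, Apoc1 and Cyp2e1 as lower and Ccn5 and Mmp12 as higher. The unadjusted split of 78 against 243 became 161 against 218 and 187 against 186. The counts of gene groups given further on are to be read against these shares.

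**Figure D1:**
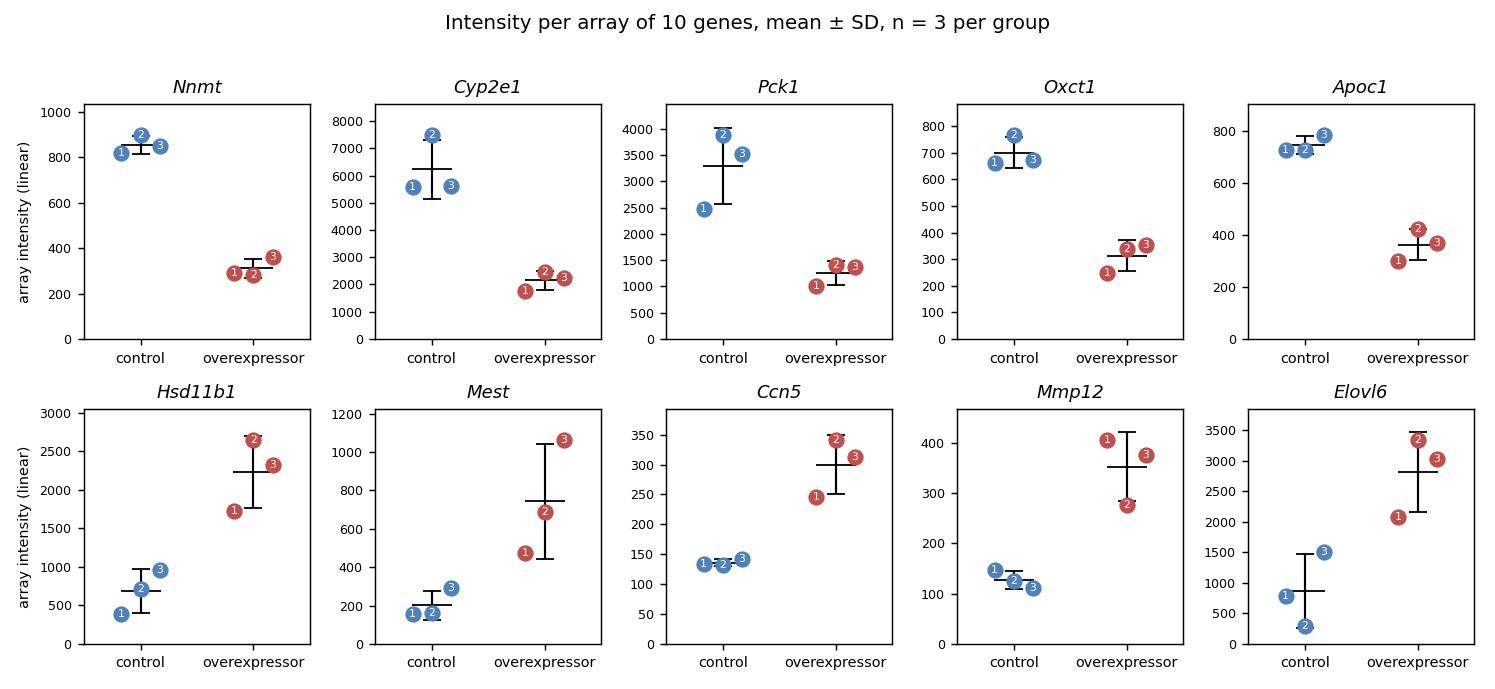
Intensity on each array (linear axis from 0) of 10 genes with large differences between groups. Points are arrays, numbered as labelled, blue for controls and red for overexpressors, and the bars give the mean ± SD of 3 arrays. Nnmt, Cyp2e1, Pck1, Oxct1 and Apoc1 read lower on all 3 overexpressor arrays and Hsd11b1, Mest, Ccn5, Mmp12 and Elovl6 higher, while only Nnmt passed the test.

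Several further metabolic genes had groups that lay well apart without passing the test. Cyp2e1, a cytochrome P450 that oxidises ethanol, acetone and other small molecules, read 1767, 2447 and 2235 in overexpressors and 5580.0, 7491 and 5607 in controls. Every control exceeded every overexpressor by more than 2-fold (log2 change -1.52, SE 0.17, adjusted p = 0.0565). Pck1, the carboxykinase that leads from pyruvate to glycerol 3-phosphate in fat, read 1001, 1400.3 and 1365 and 2478, 3886 and 3514. Overexpressor 1 was its lowest array and control 2 its highest (log2 change -1.36, SE 0.20, adjusted p = 0.111). Oxct1, which activates ketone bodies for oxidation, read 247, 340.2 and 353 and 660.0, 768 and 675. The control arrays were alike and the overexpressors all lower (log2 change -1.09, SE 0.15, adjusted p = 0.078). Apoc1, an apolipoprotein of fat cells and macrophages, read 301, 422 and 369 and 728, 728 and 786, with controls within a narrow range (log2 change -0.98, SE 0.13, adjusted p = 0.078). Tst, a mitochondrial thiosulfate sulfurtransferase, read 166, 212 and 222 and 408, 439.6 and 405, again with no overlap (log2 change -0.95, SE 0.12, adjusted p = 0.078).

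On the higher side no gene passed, and the leading genes had other roles. Hsd11b1, the reductase that regenerates active glucocorticoid inside cells, read 1718, 2646 and 2323 in overexpressors and 385, 716 and 957 in controls. Control 3 was the highest control and overexpressor 1 the lowest overexpressor, and the groups still did not overlap (log2 change 1.71, SE 0.30, adjusted p = 0.268). Mest, an imprinted gene known as a marker of fat cell enlargement, read 474, 689.6 and 1064 and 154, 162 and 289.9. Its overexpressors spread more widely than its controls (log2 change 1.68, SE 0.30, adjusted p = 0.268). Ccn5, a secreted matricellular protein of the Wnt signalling network, read 246, 341 and 312 and 133, 131 and 142. Its controls lay close together (log2 change 0.96, SE 0.13, adjusted p = 0.078). Mmp12, the macrophage elastase, read 406, 276 and 376 and 147, 125 and 111 (log2 change 1.23, SE 0.16, adjusted p = 0.078). A second, dimmer Mmp12 probe set below the filter read 179, 134 and 187 and 83, 48.5 and 57.2, and both probe sets kept the groups apart. Pth1r, the receptor for parathyroid hormone, read 329.7, 534 and 585 and 195, 159 and 254 (log2 change 1.10, SE 0.22, adjusted p = 0.348).

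Elovl6 showed the widest swing of the lipogenic genes. It extends palmitate to stearate, the step after fatty acid synthase. Its brighter probe set read 2075, 3342 and 3021 in overexpressors and 789, 296 and 1508 in controls. Control 2 was far below the other arrays, control 3 was the highest control, and every overexpressor lay above control 3. The error was large (log2 change 1.89, SE 0.48, adjusted p = 0.614). The second probe set read 1249, 2354 and 1895 and 487, 95.8 and 942, in the same order of arrays within controls (log2 change 2.15, adjusted p = 0.801).

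The promoters of 3 of the leading genes are shown, those of a pair that read lower and of 1 that read higher without overlap, as context for genes under hormonal control. Elovl6 and Mest, with changes as large, also have entries and are not printed. They are the 250 bases before the start given by RefSeq on GRCm38.p6, 5′ to 3′ on the gene's strand. Capitals mark matches, on either strand, to the TATA motif TATAAA, the CCAAT box, the E-box CACGTG (the core that carbohydrate and sterol response factors share), the GC box GGGCGG and the motif ACGTCA (part of a cyclic AMP response element). These motifs do not overlap one another in the sequences shown. No entry was matched for Nnmt.
Cyp2e1, chr7:140763569-140763818, plus strand: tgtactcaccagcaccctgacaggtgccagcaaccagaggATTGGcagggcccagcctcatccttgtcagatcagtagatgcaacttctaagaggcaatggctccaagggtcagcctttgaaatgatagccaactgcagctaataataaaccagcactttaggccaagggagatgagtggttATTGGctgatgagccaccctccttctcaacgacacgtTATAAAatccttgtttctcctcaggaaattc
Pck1, chr2:173152823-173153072, plus strand: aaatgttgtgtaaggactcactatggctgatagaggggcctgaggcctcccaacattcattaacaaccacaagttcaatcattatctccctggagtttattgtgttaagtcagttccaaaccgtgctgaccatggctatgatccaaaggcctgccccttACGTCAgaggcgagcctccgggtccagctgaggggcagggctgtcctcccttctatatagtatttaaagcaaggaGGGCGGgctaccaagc
Hsd11b1, chr1:193242361-193242610, minus strand: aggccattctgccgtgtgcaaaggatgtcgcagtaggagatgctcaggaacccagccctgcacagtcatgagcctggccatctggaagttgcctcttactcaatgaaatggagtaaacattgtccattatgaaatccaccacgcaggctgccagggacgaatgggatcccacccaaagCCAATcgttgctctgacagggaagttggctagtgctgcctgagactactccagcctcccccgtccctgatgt

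Cyp2e1 held a TATAAA match starting 31 bases before its start and CCAAT on the minus strand at 210 and 68 bases. Pck1 held ACGTCA 91 bases before its start and GGGCGG at 16. Hsd11b1 held CCAAT 72 bases before its start. Over 32851 promoters of the same length, 12.4% held TATAAA, 33.8% CCAAT, 6.02% CACGTG, 32.7% GGGCGG and 6.47% ACGTCA on either strand. These matches describe the letters of the windows and were not set against the RNA values.

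Glucose uptake and glycolysis genes gave no call. Their medians lay above 0 under each scaling of the arrays, and the size of the shift depended on the scaling. Of 20 listed genes for transporters, hexokinases and Glut4 traffic 7 were tested and none passed. Their median log2 change was 0.17, against -0.074 over all genes, and no gene kept the groups apart. Hk2, the hexokinase that insulin induces, read 575, 914 and 868 and 587, 517 and 760.0 (log2 change 0.31). Slc2a5, the fructose transporter, read 462, 642 and 606 and 455, 393 and 562. In both genes overexpressors 2 and 3 were the highest arrays and control 3 came next. Hk1, the housekeeping hexokinase, read 1602, 2217 and 2126 and 2841, 2711 and 1958, lower on average. Below hexokinase 16 genes were tested, 9 of them higher, with a median of 0.024. With the arrays quantile normalized only 1 of the 7 uptake genes and 4 of the 16 glycolysis genes read lower. These were 14.3% and 25%, against 48.2% of all genes, with medians of 0.303 and 0.097. With array medians subtracted the counts were the same, with medians of 0.23 and 0.082. Tpi1, triose phosphate isomerase, read 1357, 1861 and 1876 and 2419.6, 2007 and 2634 and was the one glycolytic gene with groups apart (log2 change -0.47, SE 0.17, adjusted p = 0.903). Among 11 glycogen enzymes, Phka2, a regulatory subunit of phosphorylase kinase, read 173, 177 and 179 and 259.5, 403 and 294. Its overexpressors were nearly equal (log2 change -0.72, SE 0.15, adjusted p = 0.389).

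Fatty acid synthesis was among the lists that read highest in the overexpressors, without a call. Of its 13 tested genes 11 read higher, with a median log2 change of 0.23. The share of genes higher among all genes was 29.2%, and that share depended on the scaling. With the arrays quantile normalized 1 of the 13 read lower (7.69%, against 48.2% of all genes), with a median of 0.365. Fasn, fatty acid synthase, read 5357, 6974 and 6855 in overexpressors and 5288, 3769 and 6211 in controls. Acly, which splits citrate into the acetyl-CoA for synthesis, read 4090.4, 4880.2 and 5096 and 3918, 1528 and 4892. Thrsp, a lipogenic protein induced by carbohydrate and thyroid hormone, read 4119.8, 5663 and 5176 and 3752, 2329 and 4799. In all 3 genes control 2 was the lowest array and overexpressor 1 lay within the range of the controls. Their log2 changes were 0.35, 0.59 and 0.50, with adjusted p of 0.903 each. Without overexpressor 1 the median of the list was 0.432, without control 3 0.505 and without control 2 0.092. Nr1h3, the oxysterol receptor LXR alpha that drives lipogenic genes, read lower, at 239.5, 363 and 361 against 501, 545 and 480.5 (log2 change -0.63, SE 0.16, adjusted p = 0.614).

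The NADPH supply showed the same order of arrays. Tkt, transketolase of the pentose phosphate pathway, read 3849, 5412 and 5229 in overexpressors and 3259, 1454 and 5098 in controls. Me1, malic enzyme, read 1457, 2898 and 2604 and 2094, 726 and 2932. Pgd, 6-phosphogluconate dehydrogenase, read 1548, 2115 and 1976 and 1520.4, 882 and 1998. Control 2 was the lowest array of all 3 genes, and control 3 lay beside overexpressors 2 and 3. Of 9 genes tested 5 read higher, with a median of 0.23 that was -0.079 without control 2 and 0.072 without overexpressor 2. Idh1, the cytosolic isocitrate dehydrogenase that also makes NADPH, was lower on all 3 overexpressor arrays, at 1162, 1342 and 1379.5 against 1681, 1542 and 1458 (log2 change -0.26, SE 0.12, adjusted p = 0.903).

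Genes for the glycerol backbone were mixed. Besides Pck1, 10 genes of glyceroneogenesis and glycerolipid synthesis were tested. Gpd1, which makes glycerol 3-phosphate from glycolytic triose, read 1833, 4183 and 4148 and 2513, 1637 and 4789. Pcx, pyruvate carboxylase, which feeds both citrate and Pck1, read 1262, 2449 and 2101 and 1003, 1044 and 1816. Lpin1, the phosphatidate phosphatase, read 747, 1356 and 1387 and 819, 668 and 1340.3. In each, overexpressors 2 and 3 and control 3 were high, and overexpressor 1 and controls 1 and 2 low. Their log2 changes over all 6 arrays were 0.23, 0.58 and 0.30, within the spread of the arrays.

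Of the lipid droplet genes, Cidec and G0s2 read lower without overlap. Cidec, which fuses lipid droplets into the single large one of white fat, read 1139, 1728 and 1792 and 2243, 2856 and 2834 (log2 change -0.77, SE 0.19, adjusted p = 0.614). G0s2, an inhibitor of the triglyceride lipase ATGL, read 755, 1073 and 1062 and 1487, 1462 and 2208 (log2 change -0.80, SE 0.20, adjusted p = 0.614). Of 14 droplet and lipolysis genes tested 10 read lower, close to the 70.8% of all genes, and their median of -0.10 became 0.025 with the arrays quantile normalized and 0.038 without overexpressor 1. Fabp5, a fatty acid binding protein of fat cells and macrophages, read 829, 1755 and 1672 and 827, 583 and 1634, with overexpressor 1 beside controls 1 and 2 and control 3 beside overexpressors 2 and 3. Of 13 cholesterol synthesis genes, Hmgcs1, the HMG-CoA synthase, read 420.5, 746 and 669.5 and 988, 949 and 1336 (log2 change -0.82, SE 0.22, adjusted p = 0.714). Sqle, squalene epoxidase, read 250.5, 264 and 249 and 386, 302 and 296. Control 3 was the highest control for 12 of these 13 genes.

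Branched-chain amino acid breakdown read mostly lower. Of 15 genes tested 14 read lower (93.3%, against 70.8% of all genes), with a median log2 change of -0.24, and none passed. With the arrays quantile normalized 10 of 15 read lower (66.7%, against 48.2% of all genes), and with array medians subtracted 12 (against 54.3%). The groups did not overlap for 3 of the 15 (6.34% of all genes lay lower without overlap). Bcat2, the mitochondrial aminotransferase that starts the pathway, read 123, 174 and 218 in overexpressors and 392, 341 and 405 in controls (log2 change -1.02, SE 0.17, adjusted p = 0.224). Mccc1, a subunit of the carboxylase of leucine breakdown, read 178, 278 and 273 and 399, 550.3 and 545 (log2 change -0.94, SE 0.18, adjusted p = 0.348). Ivd, isovaleryl-CoA dehydrogenase of the same branch, read 562, 738 and 825 and 945, 1131 and 1160.1 (log2 change -0.59, SE 0.16, adjusted p = 0.714). In these 3 genes overexpressor 1 was the lowest array, and overexpressors 2 and 3 also lay below every control. Bckdha and Bckdhb, subunits of the branched-chain ketoacid dehydrogenase, read 280.5, 436 and 421 against 402, 495 and 503 and 457, 868 and 748 against 783, 945 and 833. Their groups overlapped. Overexpressor 1 was the lowest array for 14 of the 15 genes, without it the median was -0.103, and without overexpressor 1 and control 3 it was -0.058.

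Fatty acid oxidation and the respiratory chain read lowest on overexpressor 1. Of 19 oxidation genes tested 16 read lower, with a median of -0.25, and overexpressor 1 was the lowest array for 17. Cpt2, which brings fatty acids into mitochondria as CoA esters, read 509, 1018 and 895 and 901, 1167 and 1274. Acaa2, the last thiolase of the mitochondrial spiral, read 1309, 1949 and 1496 and 1821, 1962 and 2138. Acaa1a, a peroxisomal thiolase, read 445, 630.1 and 704 and 811, 760.0 and 735 and was the only oxidation gene with groups apart. Of 52 respiratory chain subunits 46 read lower (88.5%, against 70.8% of all genes), with a median of -0.13. With the arrays quantile normalized 32 of the 52 read lower (61.5%, against 48.2%). Overexpressor 1 was the lowest of all 6 arrays for 49 of the 52, overexpressor 2 was the highest for 27 and control 3 for 17. Ndufb11, of complex I, read 621, 1078 and 1004 and 1219, 1097 and 1095, and was the only subunit with groups apart. Uqcrc1, of complex III, read 1297, 2102 and 1968 and 1977, 1901 and 2396. Without overexpressor 1 and control 3 the medians of both lists lay above 0, at 0.024 and 0.12. Without overexpressor 1 alone they were -0.038 and 0.074. With the arrays quantile normalized they stayed below 0, at -0.15 and -0.017.

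The pyruvate dehydrogenase and citric acid cycle genes behaved likewise. Of 23 tested 15 read lower, with a median of -0.078 that became 0.017 with the arrays quantile normalized and 0.10 without overexpressor 1. Pdha1, the E1 subunit of pyruvate dehydrogenase, read 2419, 3592 and 3256 and 2249, 2211 and 3018. Dlat, its E2 subunit, read 821, 1829.7 and 1501 and 841, 805 and 1543. Idh2, the mitochondrial isocitrate dehydrogenase, read 287, 403 and 455 and 548, 484 and 434. For the first pair control 3 lay nearer to overexpressors 2 and 3 than to the other controls, and for Idh2 it lay between those overexpressors. Overexpressor 1 was the lowest overexpressor for all 23 genes.

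**Figure D2:**
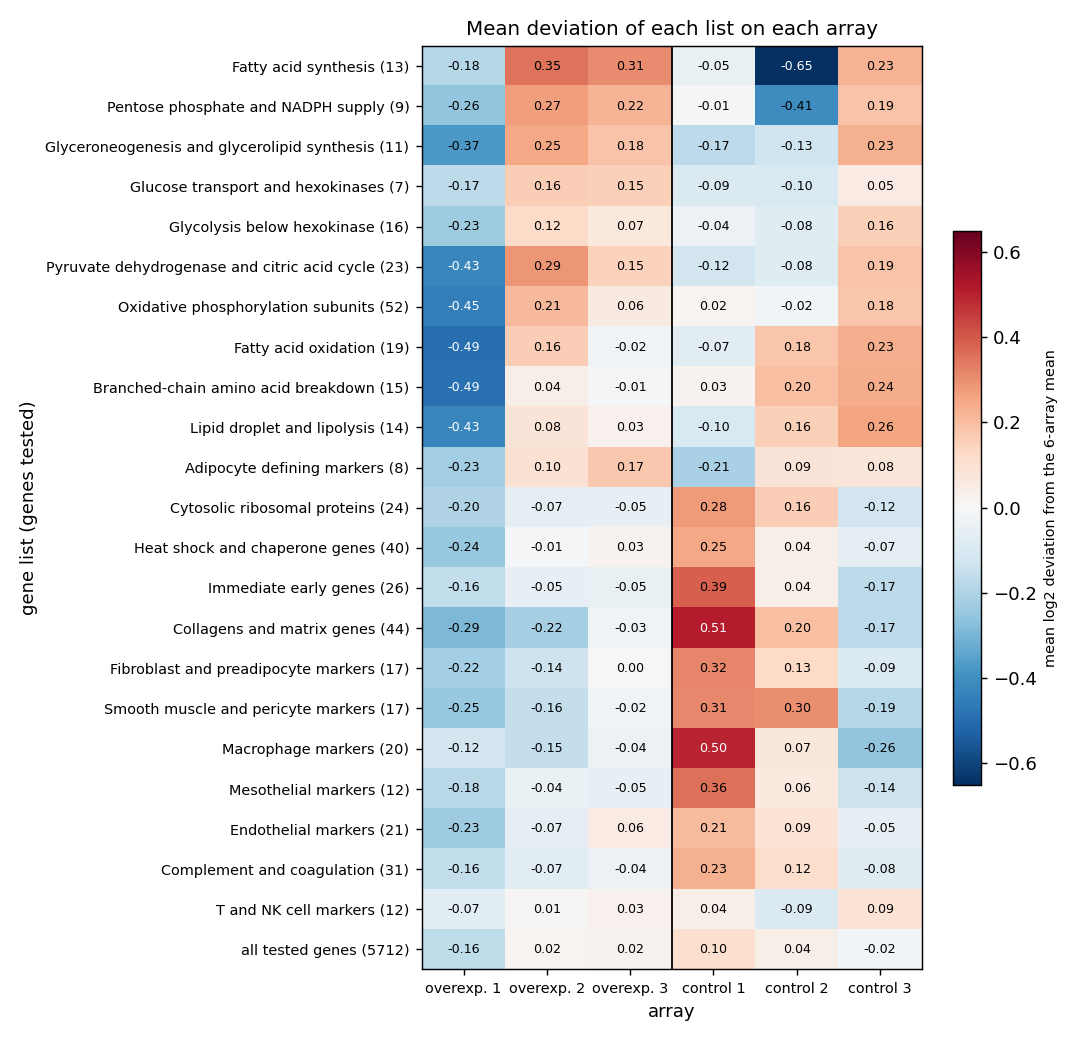
Mean log2 deviation from the 6-array mean (colour scale and printed values) for 22 gene lists and for all tested genes (rows, with the number of genes tested) on each array (columns). Overexpressor 1 is the lowest array of the fat oxidation and respiratory chain rows, at -0.49 and -0.45, and control 1 is the highest of the matrix and macrophage rows, at 0.51 and 0.50, with control 3 the lowest control there.

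Among brown fat genes Ucp1, Cox8b and Cidea varied most between arrays, while the list as a whole had no direction. Of its 7 tested genes 4 read higher and 3 lower, with a median log2 change of 0.004. Ucp1, the uncoupling protein that makes heat, read 111, 509 and 367 in overexpressors and 241, 657 and 1226 in controls. Cox8b, a respiratory subunit of brown fat and muscle, read 220.1, 749.6 and 403 and 470.1, 836 and 1239. Cidea, a lipid droplet protein of brown fat, read 226, 1148 and 642 and 398, 581 and 1343. Overexpressor 1 was the lowest array and control 3 the highest for all 3 genes, and the range within each group exceeded the difference of the group means. Their log2 changes were -0.97, -0.89 and -0.27, with adjusted p of 0.903, 0.903 and 0.948. For the other 4 genes overexpressor 1 was not the lowest array. Ucp3, a related mitochondrial carrier, read 294, 382 and 326 and 284, 291 and 361, with overlap. Dio2, the deiodinase that activates thyroid hormone, read 247, 246 and 252 and 236, 237 and 241, higher without overlap but by a log2 change of only 0.054.

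Several glucocorticoid target genes read lower without overlap, while Hsd11b1, which makes their ligand, read higher. The list as a whole was near the background, with 12 of 18 tested genes lower (66.7%, against 70.8% of all genes). In the 18 genes the groups did not overlap for 5 that were lower and for 1, Hsd11b1, that was higher, against 6.34% and 2.24% of all genes. Cebpd, a transcription factor of early fat cell differentiation, read 213, 307 and 223 and 700.1, 491 and 375 (log2 change -0.95, SE 0.22, adjusted p = 0.483). Sgk1, a kinase induced by glucocorticoids, read 364, 401 and 380.1 and 800.3, 703 and 457 (log2 change -0.69, SE 0.19, adjusted p = 0.714). Per1, a clock gene with a glucocorticoid response element, read 151, 155 and 173 and 202, 272 and 243 (log2 change -0.48, SE 0.12, adjusted p = 0.617). Dusp1, a phosphatase that stops MAP kinases, read 726, 804 and 685 and 1076, 920.2 and 941, and Errfi1, an inhibitor of the EGF receptor, read 549, 555 and 581 and 899, 735 and 669. For Cebpd, Sgk1 and Errfi1 control 3 was the lowest control, though still above the overexpressors. Fkbp5 and Pdk4, further targets, did not follow, at 384, 400.4 and 569 against 376, 391 and 410.1 and 415, 720.0 and 661 against 399.8, 673 and 536. The median of the list was -0.15, and it was -0.062 with the arrays quantile normalized, -0.066 without overexpressor 1 and -0.338 without control 3.

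Oxidising and detoxifying enzymes other than Cyp2e1 differed less. Ephx2, soluble epoxide hydrolase, read 392, 487 and 508 and 558, 1083 and 683. Aldh2, mitochondrial aldehyde dehydrogenase, read 1376, 1465 and 1385 and 1883, 2267 and 1591. Gstk1, a glutathione transferase of mitochondria and peroxisomes, read 219, 277 and 316 and 413, 390.2 and 386. All 3 had groups apart and lower in overexpressors, with adjusted p of 0.903, 0.903 and 0.685. Of 19 P450 and related enzymes tested 11 read lower, and of 30 antioxidant enzymes 20, both shares under the 70.8% of all genes. In heme metabolism, Alas1, the rate-limiting synthase, read 589, 918 and 779 and 965, 1083 and 1300.2. Slc11a2, an iron importer, read 335, 378 and 340.5 and 194, 236 and 285, higher on every overexpressor array (log2 change 0.51, SE 0.14, adjusted p = 0.714).

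Insulin and lipolytic signalling genes gave few differences. Of 19 secreted adipose proteins tested none passed. Their groups did not overlap for 3 that were lower and 1 that was higher, against 6.34% and 2.24% of all genes. Apoc1, given above, and Rbp4 were among the lower, and Ccn5, also given above, was the higher. Among 21 insulin signalling genes tested, Pik3ca, the catalytic subunit of phosphoinositide 3-kinase, was the only one with groups apart, by a margin under 1 intensity unit, at 375, 438 and 464 against 304, 340.5 and 375. Akt2, the insulin-responsive kinase of fat, read 647, 867 and 1030.2 and 1003, 1018 and 1278, with overlap through overexpressor 3. Among 17 lipolytic receptor and cyclic AMP genes, Ptger3, an antilipolytic prostaglandin receptor, read 324, 616 and 567 and 657, 710.4 and 918 (log2 change -0.60, SE 0.23, adjusted p = 0.903). Rbp4, the retinol carrier secreted by fat and liver, read 1580.5, 2269.7 and 2672 and 2798, 2855 and 3407 (log2 change -0.49, SE 0.19, adjusted p = 0.903), with no overlap. Apoe, an apolipoprotein of fat and macrophages, read 4190.2, 4782 and 4481 and 6392, 6014 and 4768. Retn, which encodes resistin, read 4148, 5406 and 5472 and 4270.3, 4362 and 4776. Igfals, the subunit that stabilises IGF complexes, read 165, 131 and 132 and 183, 193 and 258. In the nicotinamide list, Nampt, the enzyme that recycles nicotinamide into NAD, read 112, 201 and 201 and 229, 233 and 226, and its controls were nearly equal. Nampt was far less shifted than Nnmt (log2 change -0.39, SE 0.18, adjusted p = 0.903).

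A probe set of the major urinary protein family, whose members share sequence so that the gene is uncertain, gave the largest signed change of the lists. Named Mup5 on the platform, it read 109, 436 and 56.2 and 1056, 882 and 612. Overexpressor 2 lay nearest the controls and overexpressor 3 was close to the floor (log2 change -2.22, SE 0.52, adjusted p = 0.503). A dim probe set named Mup3, below the filter, read 21.9, 49.3 and 25.6 and 116, 117 and 92.8, also without overlap. The Mup3 probe set that was bright enough to test read 207, 334 and 281 and 368, 289.6 and 312, and its groups overlapped (log2 change -0.23).

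Matrix genes gave the largest median on the lower side among the lists of 5 or more genes. Of 44 collagen and matrix genes tested 41 read lower (93.2%, against 70.8% of all genes), with a median log2 change of -0.42, and none passed. With the arrays quantile normalized 38 read lower (86.4%, against 48.2%), with a median of -0.315. In 6 of the 44 genes the groups did not overlap, where 6.34% of all genes lay lower without overlap. Dpt, dermatopontin of the collagen matrix, read 1065, 1076 and 1213 in overexpressors and 2261, 2136 and 1472 in controls (log2 change -0.77, SE 0.17, adjusted p = 0.464). Col1a1 and Col1a2, the chains of type I collagen, read 1875, 2361 and 2951 against 4663, 3602 and 2644 and 2009, 1897 and 2369.7 against 4024, 3549 and 2333. Lamc1, a laminin chain of basement membranes, read 774, 828 and 981 and 1412, 1240.3 and 1102. Col4a1, of basement membrane collagen, read 1622, 2149 and 2712 and 3293, 2694 and 2826. Control 1 was the highest array in each of these 5 genes, and control 3 was the lowest control in all but Col4a1, where control 2 was. Over the list control 3 was the lowest control for 40 of 44 genes, against 49.1% of all genes. Without control 1 the median was -0.22, and without overexpressor 1 and control 3 it was -0.55.

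Markers of other cells of a fat pad read lower along with the matrix genes. In whole tissue, fewer cells of a type and less RNA per cell cannot be told apart. For fibroblasts and preadipocytes 15 of 17 tested markers read lower (88.2%, against 70.8% of all genes), with a median of -0.30. The summed level of the 18 markers named on the array was 22364 to 26188 in overexpressors and 24959 to 33033 in controls. Pdgfra, the growth factor receptor of fat progenitors, read 898, 1008 and 1029 and 1511, 1455 and 1008. For smooth muscle and pericytes 14 of 17 read lower (82.4%), with a median of -0.29, and 20 markers summed to 20262 to 23131 against 20472 to 31439. Myh11, smooth muscle myosin, read 1087, 1026 and 1154 and 1945, 1933 and 1109, and Tagln, an actin-binding protein of contractile cells, 1973, 1983 and 2384 and 3874, 3517 and 2107. In both genes control 3 lay with the overexpressors. For macrophages 17 of 20 read lower (85%), with a median of -0.27, and 26 markers summed to 12919 to 13969 against 12354 to 22028. Csf1r, the receptor that maintains macrophages, read 793, 732 and 793 and 1334, 1004 and 743, and Mrc1, the mannose receptor of resident macrophages, 516, 528 and 549.8 and 1199, 750.4 and 514. With the arrays quantile normalized 15 of 17 fibroblast, 14 of 17 smooth muscle and 15 of 20 macrophage markers read lower, against 48.2% of all genes. Their medians were then -0.198, -0.165 and -0.168. None of these 3 marker lists held a gene at the floor on all 6 arrays, and none of the macrophage markers kept the groups apart. The part of these cells in the matrix result was not tested.

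Without control 1 the macrophage median was -0.037, the smooth muscle median -0.18 and the fibroblast median -0.21. Mmp12 and Ccn5 were higher in overexpressors although most genes of the macrophage and fibroblast lists were lower. Mesothelial markers, of the membrane that covers visceral fat, read lower for 11 of 12 genes (91.7%, against 70.8% of all genes). Their median was -0.20, or -0.039 without control 1. Msln, mesothelin, read 438, 444 and 491 and 1379, 475 and 323, high on control 1 alone. Endothelial markers read lower for 18 of 21 genes (85.7%) with a median of -0.13, or -0.065 without overexpressor 1. With the arrays quantile normalized 13 of the 21 read lower (61.9%, against 48.2% of all genes), with a median of -0.082. Tie1, an endothelial receptor kinase, was the only one with groups apart, at 348, 436 and 449.97 against 537, 607 and 482.

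Markers of tissues that can be carried along with perigonadal fat, and of further immune cells, had small medians. The median log2 change was -0.024 over 21 ovary, oviduct and uterus genes, -0.077 over 11 mammary genes and -0.089 over 11 liver and pancreas genes. Of these genes 12 of 21, 9 of 11 (81.8%) and 8 of 11 (72.7%) read lower. The mean of the liver and pancreas genes was lower on every overexpressor array, with log2 deviations from the 6-array mean of -0.065, -0.059 and -0.044 against 0.031, 0.047 and 0.09, and their median was -0.009 with the arrays quantile normalized. The part of such tissue in other results was not tested. List means were likewise lower on every overexpressor array for the nicotinamide and methyl donor, heme, and major urinary and other lipocalin lists. Oxct1, the 1 tested ketone body gene, did the same. The median was 0.009 over 12 T and NK cell genes, -0.10 over 14 B and plasma cell genes, -0.033 over 15 mast cell and granulocyte genes and -0.055 over 9 nerve genes. Erythroid genes had a median of 0.08. Skeletal muscle markers varied within the overexpressors. Acta1, skeletal actin, read 460.3, 1027 and 2169 and 711, 1576 and 1732, low on overexpressor 1 and control 1. The 24 muscle markers named on the array summed to 11207, 14710.0 and 17643 in overexpressors and 13690.0, 15287 and 15932 in controls.

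Protein synthesis and stress genes split the arrays by control 1 as well. Of 24 cytosolic ribosomal protein genes tested 23 read lower (95.8%, against 70.8% of all genes), with a median of -0.21, and none kept the groups apart. With the arrays quantile normalized 20 read lower (83.3%, against 48.2%), with a median of -0.089. Many ribosomal protein genes have processed copies that probes can read too, so single members are uncertain. Rplp0, of the large subunit stalk, read 4470.3, 4758 and 4801 and 6392, 5774 and 4774, and Rps18 of the small subunit read 2719, 3105 and 3079.5 and 4313, 3907 and 3000.3. Control 1 was the highest array for 21 of the 24 and control 3 the lowest control for 22. Of 40 heat shock and chaperone genes 34 read lower (85%, against 70.8% of all genes), with a median of -0.15. With the arrays quantile normalized 24 read lower (60%, against 48.2%), with a median of -0.048. Without control 1 the ribosomal median was -0.131, the heat shock median -0.071 and that of immediate early genes, described next, also -0.071. Hspa1a, the inducible heat shock protein, read 153, 109.7 and 133 and 315, 206 and 127. Of 26 immediate early genes 21 read lower (80.8%), with a median of -0.18, and control 1 was the highest array for 20. With the arrays quantile normalized 17 read lower (65.4%), with a median of -0.084. Egr1, a transcription factor induced within minutes of a stimulus, read 243, 306 and 305 and 866, 294 and 241, and Fos read 169, 129 and 127 and 577, 139 and 74.2. Both stood high on control 1 alone. Btg1, an antiproliferative gene, read 582, 527 and 537 and 1037, 951 and 643 and kept the groups apart (log2 change -0.62, SE 0.18, adjusted p = 0.765). Proteasome subunits read lower for 26 of 37 genes (70.3%), the share of all genes, but for only 10 of 37 with the arrays quantile normalized, where the median of -0.04 became 0.059. Among 26 cell cycle genes Cdkn2c, an inhibitor of cyclin-dependent kinases, read 643, 934 and 826 and 1360.3, 1262 and 1529 (log2 change -0.77, SE 0.16, adjusted p = 0.348).

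**Figure D3:**
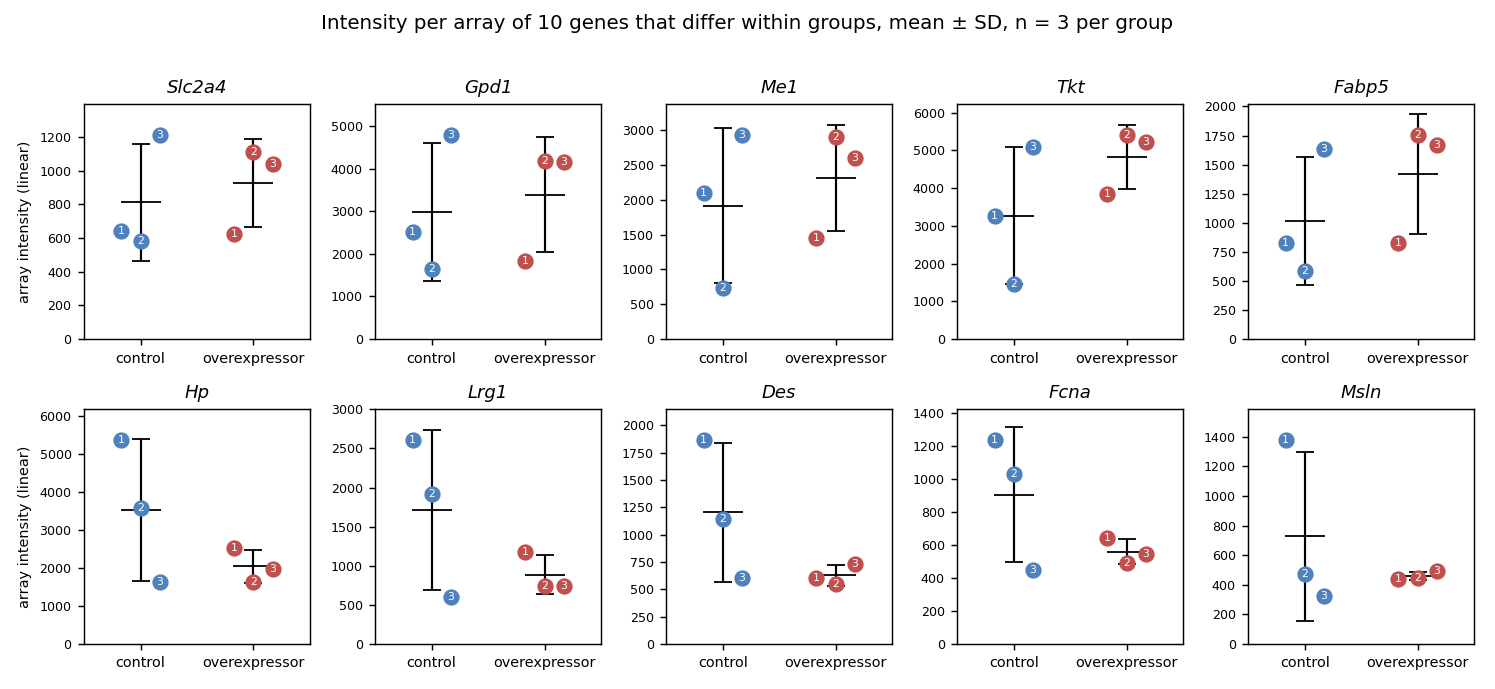
Intensity on each array (linear axis from 0) of 10 genes that differ within the groups, with points numbered by array and bars for the mean ± SD of 3 arrays. Slc2a4, Gpd1, Me1, Tkt and Fabp5 are high on control 3 and lower on overexpressor 1, and Hp, Lrg1, Des, Fcna and Msln are low on control 3 and high on control 1.

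The genes farthest from the rest of their group on overexpressor 1 and control 3 had varied roles. On overexpressor 1 the largest departure was that of Aldoart2, a testis type of aldolase, which read 21.9, 674 and 622 on the overexpressors, the first value being the floor, and 119.6, 139.6 and 411 on the controls. Its log2 departure from the other overexpressors was -3.54. On the same array Gbe1, the glycogen branching enzyme, read 109 against 425 and 360.4 on the other overexpressors and 169.7, 115 and 357 on the controls. Ctsg, cathepsin G of mast cells and neutrophils, was at the floor of 21.9 on overexpressor 1, at 132 and 413 on the other overexpressors and at 987, 345 and 96.5 on the controls. Zbtb16, a zinc finger protein induced by glucocorticoids, read 186, 664 and 574 and 459, 899 and 541. On control 3 the 12 genes farthest below the other controls began with Ctsg, Lrg1, Fos and Car6, a secreted carbonic anhydrase that read 573, 519 and 555 and 846, 904 and 286. Msln was also among them. Hp, haptoglobin, read 2509, 1637 and 1971 and 5364, 3562 and 1622, and Lrg1, another acute phase glycoprotein, read 1169.9, 741 and 743 and 2610.0, 1923 and 596. Des, desmin of contractile cells, read 602, 545 and 733 and 1867, 1138 and 605. Fcna, a ficolin of macrophages, read 639, 493 and 548 and 1237, 1029.5 and 446. In each of these 4 genes control 3 lay below or among the overexpressors and far below controls 1 and 2. The 12 genes farthest above the other controls began with Cldn6, a claudin of epithelia, which read 252, 191 and 297 and 71, 106 and 356. They also held Elovl6, Gpd1, Me1, Tkt, Fabp5, Ucp1 and Cidea, and Parm1, Aldoart2, Dnah8 and Zfp30. Aldoart2 thus departed on both arrays, downwards on overexpressor 1 and upwards on control 3.

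Leaving out overexpressor 1 and control 3 together raised the number of calls from 1 to 74 (0.993% of probe sets), 41 higher and 33 lower. Leaving out any other pair of 1 overexpressor and 1 control gave 0 to 3 calls. Without overexpressor 2 alone, and with all 12 arrays sharing the spread, there were 6 calls each (0.0805%). With limma's array weights, which reduce the part of arrays far from their group, there were 288 (3.86%), 133 higher and 155 lower. The weights were 0.267, 2.602 and 1.511 for the overexpressors and 0.477, 4.327 and 0.461 for the controls. Control 1 was thus reduced about as much as control 3, and control 2 and overexpressor 2 counted most. Leaving out control 3, the control nearest to the overexpressors, widens the difference between the groups by construction. The labels give no reason to drop overexpressor 1 or control 3. Of the 74 probe sets 69 carried 1 gene name. The calls on the higher side held lipogenic and pyruvate genes. Elovl6 rose by 2.62 (adjusted p = 0.0367), Pcx by 1.12 (adjusted p = 0.0253), Dlat by 0.98 (adjusted p = 0.0304), Fabp5 by 1.26 (adjusted p = 0.0304), Lpin1 by 0.86 (adjusted p = 0.0424) and Slc2a4 itself by 0.78 (adjusted p = 0.0389) on the log2 scale in limma's fit of the 4 arrays. Hsd11b1 and Mest rose by 2.16 (adjusted p = 0.0293) and 2.20 (adjusted p = 0.0211). On the lower side were Nnmt at -1.33 (adjusted p = 0.0253), Cyp2e1 at -1.45 (adjusted p = 0.0253), Dpt at -0.92 (adjusted p = 0.0304), Col1a2 at -0.82 (adjusted p = 0.0496), Myh11 at -0.81 (adjusted p = 0.0304), Tagln at -0.75 (adjusted p = 0.0487), Sgk1 at -0.88 (adjusted p = 0.0304), Hp at -1.27 (adjusted p = 0.0449) and Lrg1 at -1.55 (adjusted p = 0.0253).

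The arrays left out did not enter the fit that chose those 74 probe sets, and were left out because of where they lay among the 6. Overexpressor 1 lay nearer to overexpressors 2 and 3 than to controls 1 and 2 for 45 of the 74, and nearer to the controls for 29. Control 3 lay nearer to the controls for 20 and nearer to the overexpressors for 54. Both arrays lay on the side of their own label for 15 probe sets and both on the other side for 24. Of the 33 lower calls overexpressor 1 was on the overexpressor side for 31 (93.9%), and control 3 also for 26 (78.8%). Over all 4400 probe sets that read lower in these 4 arrays, the shares were 78.1% and 72.3%. Of the 41 higher calls overexpressor 1 was on the control side for 27 (65.9%), and control 3 on the overexpressor side for 28 (68.3%). Over all 3054 that read higher, the shares were 72.9% and 53.2%. The part that the low brightness of overexpressor 1 has in these sides was not tested. The genes for which both arrays kept to their label included Nnmt, Cyp2e1, Tst, Oxct1, Apoc1, Ccn5, Mmp12, Hsd11b1, Mest and Pth1r. Those for which both lay on the other side included Slc2a4, Pcx, Dlat, Pdha1, Fabp5, Lpin1 and Gbe1.

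**Figure D4:**
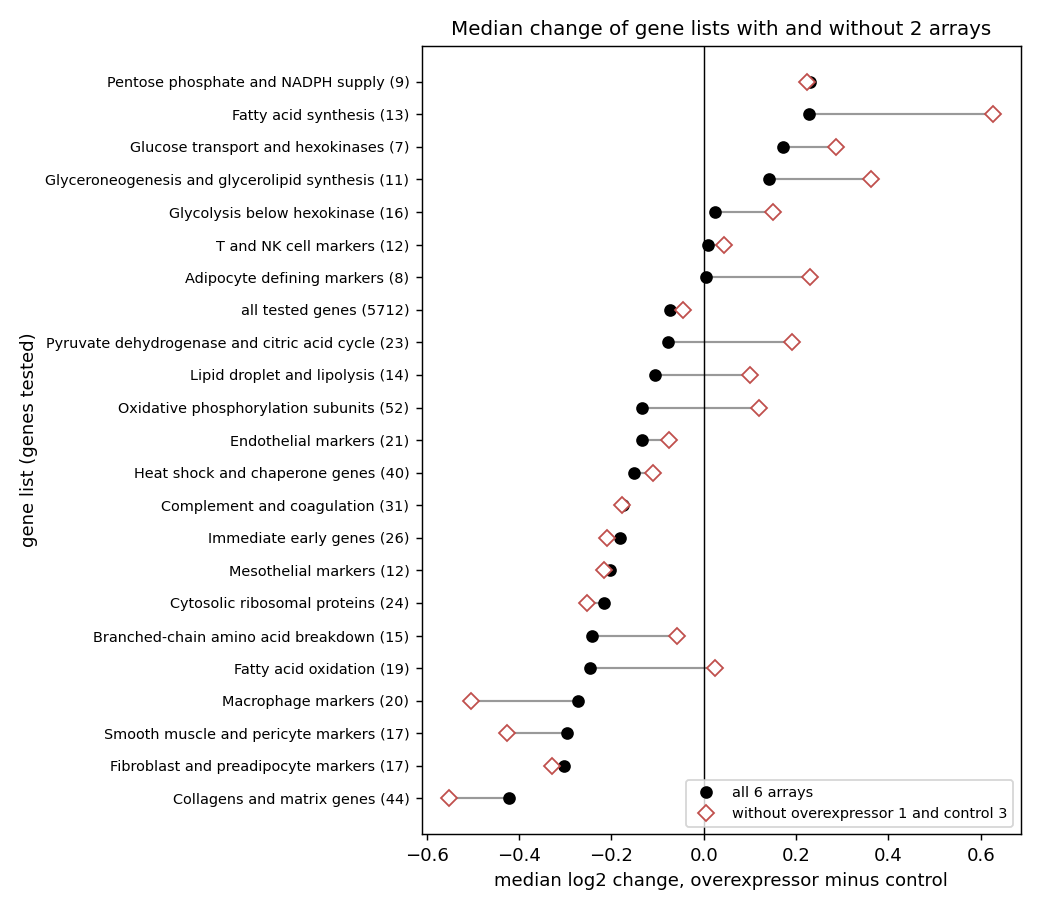
Median log2 change, overexpressor minus control (horizontal axis), of 22 gene lists and of all tested genes, with all 6 arrays (black points) and without overexpressor 1 and control 3 (red diamonds), with the number of genes tested in brackets. Fatty acid synthesis moves from 0.23 to 0.63 and the respiratory chain from -0.13 to 0.12, while the matrix genes move from -0.42 to -0.55.

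The list medians followed. Without the 2 arrays the median of fatty acid synthesis was 0.63 in place of 0.23, that of the citric acid cycle 0.19 in place of -0.078, and that of macrophage markers -0.50 in place of -0.27. The adipocyte markers moved from 0.004 to 0.23. The median over all genes stayed between -0.074 and -0.045. On control 3 the fatty acid synthesis and respiratory chain lists read high and the matrix and macrophage lists low. Their mean log2 deviations from the 6-array mean were 0.226, 0.181, -0.169 and -0.258. On overexpressor 2 they were 0.352, 0.213, -0.217 and -0.155. On overexpressor 3 only fatty acid synthesis, at 0.307, stood clear, and the others were at 0.058, -0.026 and -0.04. Adipocyte markers moved along on the same arrays, and their part in these shifts was not tested.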

How the data were processed

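The authors deposited 1 table of array intensities on a linear scale, 1 value per probe set and array. Per the labels' protocols, RNA came from a Qiagen RNeasy kit and a core facility ran the biotin labelling and Affymetrix hybridisation. Summarisation software and scaling were not given in the sources used here. Titles set the groups. Of 12422 probe sets 10833 carried 1 gene symbol in the platform annotation, 396 several and 1193 none, and 10817 matched a RefSeq gene by gene ID.

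Here log2(intensity + 36.96) was analysed by limma 3.58.1 under R 4.3.3 (lmFit, eBayes with an intensity trend, tested on simulated data), leaving out the 40% dimmest probe sets. No further normalization was applied. The brightest probe set stood for a gene.

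The 56 gene lists held 1514 genes, of which 926 were tested and 263 too dim, while 325 had no named probe set. Members and lists were chosen with earlier results of these data known, so they are described by counts and medians, with no set test. Named genes were Slc2a4, fixed adipose genes, every call, up to 12 genes per direction with the smallest p among those without overlap, genes called with 12 arrays, list members with the smallest p (up to 3, and 2 in the other direction), genes farthest from their group on overexpressor 1 and control 3, and further members of lists described in depth. The smallest two-sided p of an exact permutation of 3 against 3 arrays is 0.1, so none was run. Plots used matplotlib 3.10.9 and Python 3.11.15.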

Additional observations from a re-analysis of the deposited data

How the results depend on the processing

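The number of arrays limits the precision, and the 40% dimmest probe sets were not tested. The 1 call became 7 with array medians subtracted and 7 with quantile normalization, 2 with 60% of probe sets left out, 6 with all 12 arrays sharing the spread and 0 with no filter on dim probe sets (518 at an unadjusted p under 0.05 by limma). Array weights gave 288 and leaving out both overexpressor 1 and control 3 gave 74. A constant of 1 or of the 25th percentile, 85.43, and a fit with no intensity trend each gave 1. Without single arrays there were 0 to 6 calls. The counts of 0, without overexpressor 1 and without controls 1, 2 and 3, had 339, 209, 200 and 976 probe sets at an unadjusted p under 0.05, and the 6 came without overexpressor 2. The other 8 pairs of arrays, an alternative chosen after seeing the data, gave 0 to 3 calls, with 128 to 855 probe sets at an unadjusted p under 0.05. The cause of these differences was not tested.

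Array numbers are shared by the groups. With the number as a replicate block there were 6 calls (Nnmt, Cyp2e1 and Pck1 lower, Hsd11b1 and Mest higher, and Gria4 lower). The deviations of arrays with the same number correlated at -0.071, -0.084 and 0.011, and those with different numbers at -0.204 to 0.202. The labels state no pairing. So few arrays, with whole-array differences among them, cannot decide whether the numbers pair the mice.

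Of 119 genes named in the text, 112 kept their direction and side of the threshold with array medians subtracted, 111 with quantile normalization, 50 with array weights and 80 without both arrays. Log2 changes took the other sign for Fabp4 with quantile normalization (0.059), for Adipoq with array medians subtracted (0.013), with quantile normalization (0.031) and without both arrays (0.086), and without both arrays also for Uqcrc1 (0.067), Ucp1 (0.097), Cidea (0.789) and Acta1 (0.480). Array weights turned Uqcrc1 (0.034), Cidea (0.472) and Mup3 (0.034). Without single arrays the changes of Adipoq ranged from -0.131 to 0.082, Lep from -0.14 to 0.228, Me1 from -0.153 to 0.827, Gpd1 from -0.129 to 0.635, Cidea from -0.768 to 0.318, Fkbp5 from -0.00 to 0.263, Pdk4 from -0.041 to 0.370, Msln from -0.785 to 0.202, Acta1 from -0.824 to 0.251, Egr1 from -0.771 to 0.079, Zbtb16 from -0.804 to 0.020, Ucp3 from -0.004 to 0.186, Aldoart2 from -0.232 to 1.565 and Car6 from -0.639 to 0.132. Slc2a4 ranged from 0.03 to 0.53. The cause was not tested.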

Other observations

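Complement and clotting genes read lower somewhat more often than all genes. Of 31 tested 24 read lower (77.4%, against 70.8% of all genes), with a median log2 change of -0.17, or -0.072 without control 1. With the arrays quantile normalized 22 read lower (71%, against 48.2%), with a median of -0.131. Cfp, the complement activator properdin, read 339, 260.0 and 374 in overexpressors and 707, 569.5 and 393 in controls. Cd55, a membrane inhibitor of complement, read 441, 414 and 443 and 846, 806 and 474. Both genes had groups apart, with control 3 the lowest control. F3, the tissue factor that starts clotting, read 367, 482 and 462 and 249, 339 and 224 and was higher on all 3 overexpressor arrays (log2 change 0.63, SE 0.16, adjusted p = 0.635).

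Among 36 solute carriers tested 25 read lower, and 18 with the arrays quantile normalized. Slc19a1, the reduced folate carrier, read 314, 507 and 423 and 220.3, 247 and 289.7, higher in overexpressors (log2 change 0.63, SE 0.17, adjusted p = 0.714). Its second probe set read 239, 246 and 235 and 148, 151 and 209, in the same direction. Slc31a1, a copper importer, read 220.0, 352 and 306 and 459.7, 394 and 371. Slc3a2, the heavy chain of amino acid exchangers, read 626, 887 and 809 and 1079.8, 897 and 901. These last genes were lower without overlap, and none of the 36 passed the test.

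Outside the lists, 2 copper ferroxidases, chosen after their values were seen, differed in opposite directions. Heph, hephaestin, read 247, 258 and 191 and 512, 593 and 336, lower in overexpressors with a log2 change of -0.92 (limma adjusted p = 0.42). Cp, ceruloplasmin, read 447, 655 and 547 and 347, 379 and 340.0, higher with a log2 change of 0.57 (adjusted p = 0.614). Ifi27l2a, an interferon-inducible gene of fat, read 1092, 1478 and 1101 and 2729, 2719 and 1915 (log2 change -0.98, SE 0.18, adjusted p = 0.327), while the 31 interferon and antigen presentation genes had a median of -0.013.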
